A study of Mus musculus with 4 samples.

Results

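Described here are 10 genes in common use as markers of Mueller glia, the radial glia that span the vertebrate retina: Slc1a3, Glul, Kcnj10, Aqp4, Rlbp1, Car2, Apoe, Clu, Dkk3 and Gpr37. They were taken by gene symbol from a table of 22690 genes, and each of the 10 stood on 1 row. All 10 had a mean of at least 10 normalized read counts and so entered the test, as did 14480 genes in all. A normalized read count is the number of reads counted in a gene divided by a size factor of its library. The cells came from retinas of C57BL/6 mice at postnatal day 2 and were sorted for 4N DNA, the content of a cell between replication and division. The GFP-positive cells carried a conditional knockout of the zinc finger gene Casz1, written cKO here. The GFP-negative cells were labelled wild type. Each group had 2 libraries, and the study's text speaks of 2 independent experiments without saying which library came from which. Genotype and GFP gate changed together between the groups and cannot be told apart. The driver of Cre and GFP and the number of animals behind a library were not given in the sources used here.

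Mueller glia take up glutamate and convert it to glutamine, carry potassium and water away from active neurons, recycle retinoids, buffer pH and export lipids. They are among the last cells that retinal progenitors form, and in mice most arise after birth. Late progenitors already transcribe many genes that are later kept by Mueller glia, so in dividing cells of a newborn retina such transcripts are not specific to differentiated glia. Several of the genes also have other sources: Apoe is made by microglia and astrocytes, Aqp4 and Clu by astrocytes, Rlbp1 by pigment epithelium, and Car2 and Gpr37 by oligodendrocytes.

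Libraries are named by the tag, A or B, that their column names share across the groups; no label ties a tag to an experiment. Reads in genes numbered 22326119 in cKO library A, against 75832360 to 89473701 in the other 3 libraries. Of all 22690 genes, 9179 were at 0 in cKO library A, against 5793 to 6169 in the other 3. Across the tested genes cKO library A correlated with the other libraries at a Pearson r of 0.902 to 0.918, and the other 3 with each other at 0.988 to 0.993, on log2 values. Casz1 itself had 8687 and 10772 normalized read counts in cKO libraries A and B, against 13162 and 11995 in wild-type libraries A and B. Its log2 fold change of −0.38 did not pass (limma, adjusted p = 0.771), and reads from exons outside a deleted part would still be counted.

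Most of the marker genes were high in all 4 libraries, and 7 of the 10 had their highest value in cKO library A. Of all tested genes, 37.8% had their highest value in that library. Clu and Aqp4 had their lowest value there, as did 44.7% of all tested genes. No marker gene passed the test between the groups: 0 of 10 passed in limma at an adjusted p under 0.05, where the background over 14480 genes was 0%. At an unadjusted p under 0.05 there were also 0 of 10, against 1.89% of all tested genes, and there were 0 of 10 in edgeR (1.44% of all genes) and in DESeq2 (2.27%) on the recovered reads. After adjustment edgeR called 0 of 10, with a background of 0%, and DESeq2 called 0 of 10, with 0.00572% of genes higher and 0.00572% lower. The median log2 fold change of the 10 genes, cKO over wild type, was 0.25, beside −0.03 over all tested genes. Of the 10, 6 lay above 0 and 4 below, where 46.7% of all tested genes lay above and 53.3% below. Without cKO library A the median of the 10 genes was −0.14, and without cKO library B it was 0.46. With 2 libraries against 2, an exact permutation test of a single gene cannot go below p = 0.333 (two-sided), so the single-gene tests borrow the spread of all genes. In these bulk samples fewer cells of a type and less RNA per cell cannot be told apart.

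**Figure D1:**
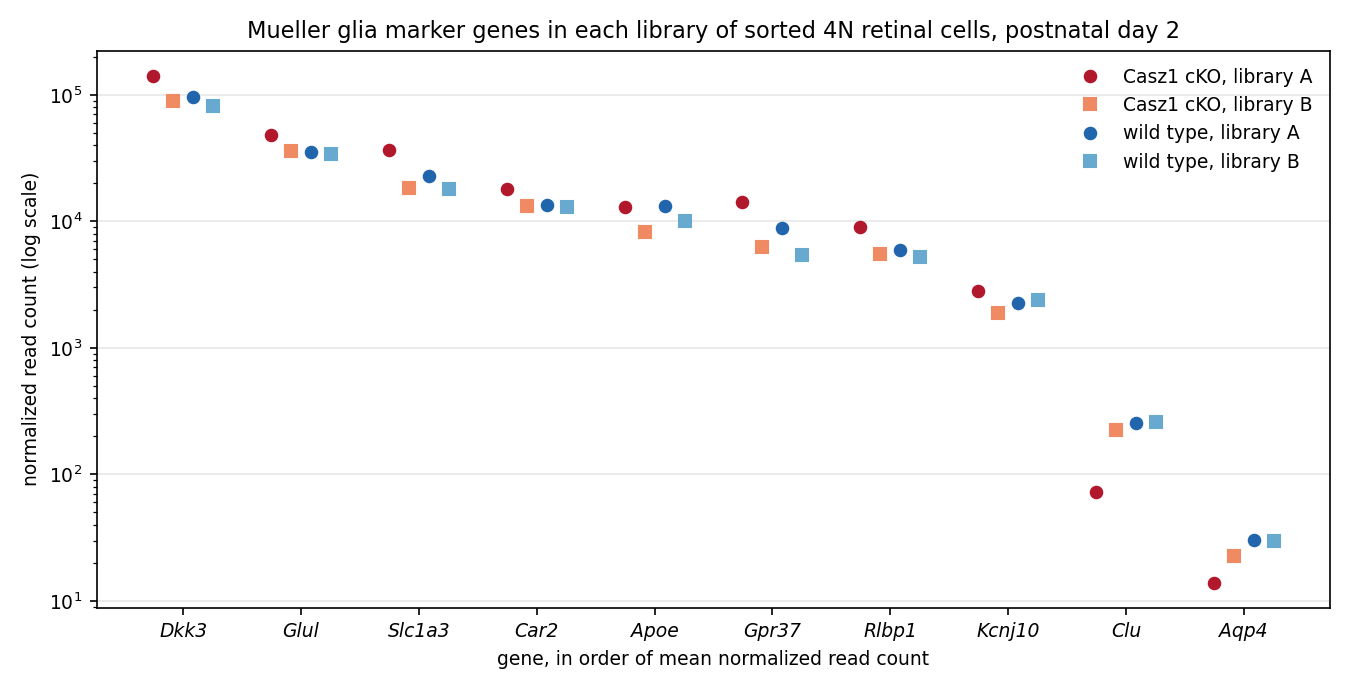
Normalized read count (log axis) of each of the 10 marker genes in the 2 Casz1 cKO libraries (red and orange) and the 2 wild-type libraries (blue), 1 point per library, genes in order of mean. Dkk3 stood highest, at 81962 to 140616, and Aqp4 lowest, at 14.0 to 30.4; cKO library A was the highest point for 7 genes and the lowest for Clu and Aqp4.

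Levels of the genes were compared with each other per kilobase of exon, using the union of exons in GENCODE M21 as length. Dkk3 led with a mean level of 30338 ± 7852 normalized read counts per kb (SD, n = 4 libraries), followed by Glul at 11524 ± 2015. The ranges of these genes over the libraries did not overlap each other. Car2 (5943 ± 979), Apoe (5204 ± 1109), Slc1a3 (2802 ± 1039), Rlbp1 (2180 ± 586) and Gpr37 (1441 ± 658) came next, and each of them overlapped its neighbour in this order. Kcnj10 stood apart below them at 431 ± 71.7 per kb. Clu, at 59.1 ± 25.7 per kb, and Aqp4, at 3.87 ± 1.23, closed the order with no overlap of their ranges. Among the 14357 tested genes with a length, Dkk3 lay at percentiles 99.7 to 99.8 in every library and Glul at 98.9 to 99.0. Aqp4 lay at percentiles 2.09 to 7.89. Clu lay at percentiles 15.6 to 22.8, and Kcnj10 in the middle of the range, at 48.55 to 61.0. Aqp4, the water channel of mature Mueller end feet, was thus near the floor in sorted cells in which the glutamate, retinoid and carbonic anhydrase markers were abundant.

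The glutamate genes were higher in cKO library A and close to wild type in cKO library B. Slc1a3 (ENSMUSG00000005360, chr15:8634124-8710764 of GRCm38, minus strand) encodes GLAST, the glutamate transporter of Mueller glia. It had 36834 and 18370 normalized read counts in cKO libraries A and B, against 22618 and 17862 in wild-type libraries A and B. One cKO library lay above both wild-type libraries and the other between them, so the groups overlapped. The means were 27602 ± 13056 in cKO and 20240 ± 3363 in wild type (SD, n = 2 each), a log2 fold change of 0.37 (SE 0.36; limma, adjusted p = 0.771). Glul (ENSMUSG00000026473, chr1:153899944-153909723, plus strand) encodes glutamine synthetase, which makes glutamine from the glutamate taken up. It had 48239 and 36123 in cKO libraries A and B, against 35019 and 33800 in wild-type libraries A and B. Glul was the only one of the 10 genes with both cKO libraries above both wild-type libraries, a pattern held by 17.2% of all tested genes. Its log2 fold change was 0.28 (SE 0.22, 95% interval −0.26 to 0.82; limma, adjusted p = 0.771). Exons of Glul overlap those of 2 other genes; the larger overlap, 116 bases, is with a gene on the opposite strand that had at most 3.97 normalized read counts in any library.

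Other genes of the glutamate cycle lay on both sides of 0. Of 14 tested, 7 were above 0 and 7 below (median log2 fold change −0.00), and 0 passed in limma. Slc38a1 and Slc38a2, amino acid transporters that carry glutamine, were the most abundant of them, at log2 fold changes of 0.08 and −0.03. The smallest p belonged to Slc1a7, a glutamate transporter of retinal neurons. Slc1a7 had 1266 and 1422 in cKO libraries A and B, against 3110 and 2347 in wild-type libraries A and B, a log2 fold change of −1.01 (limma, adjusted p = 0.771). Both cKO libraries lay below both wild-type ones, as for 22.3% of all tested genes and 4 of the 14 of this list. Slc1a7 had −0.93 when cKO library A was left out, a fit in which the spread came from the wild-type libraries alone. Slc38a1 had −0.02 in that fit.

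The retinoid carrier and the carbonic anhydrase were also highest in cKO library A. Rlbp1 (ENSMUSG00000039194, chr7:79374870-79387048, minus strand) encodes CRALBP, the carrier of 11-cis-retinoids in Mueller glia and pigment epithelium. It had 9000 and 5535 normalized read counts in cKO libraries A and B, against 5961 and 5261 in wild-type libraries A and B. The log2 fold change was 0.33 (SE 0.27; limma, adjusted p = 0.771). Car2 (ENSMUSG00000027562, chr3:14886273-14900770, plus strand) encodes a cytosolic carbonic anhydrase. It had 17946 and 13206 in cKO libraries A and B, against 13374 and 13049 in wild-type libraries A and B. The wild-type pair and cKO library B lay between 13049 and 13374, and cKO library A stood above them. The log2 fold change of Car2 was 0.22 (SE 0.21; limma, adjusted p = 0.771). Summed pigment epithelium markers had 5678 and 4168 in cKO libraries A and B, against 3972 and 4018 in wild-type libraries A and B. Rrh carried most of that sum: the other 13 markers had 612 and 859 in cKO libraries A and B, against 945 and 871 in wild-type libraries A and B, so cKO library A was then the lowest. In cKO library A, 7 of those 14 markers were at 0, Rpe65, Lrat, Ttr, Tyr and Tyrp1 among them. Of all 22690 genes, 9179 were at 0 there. Rpe65 was also at 0 in wild-type library A, and the part of pigment epithelium RNA in Rlbp1 was not tested. The most abundant of that list, Rrh, a retinal G protein-coupled opsin, had a log2 fold change of 0.41, and Dct, a melanin enzyme, −0.13; without cKO library A they had 0.10 and 0.02.

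Around them the lists were divided. In the retinoid cycle 9 of 17 tested genes were above 0 and 8 below (median log2 fold change 0.01; 0 called). Rbp3, the retinoid carrier between photoreceptors and pigment epithelium, had −0.39, and Rdh10, a retinol dehydrogenase also of Mueller glia, had 0.38. Dgat1, an acyltransferase that can esterify retinol, had the smallest p, at −0.84 (limma, adjusted p = 0.771). When cKO library A was left out, Rbp3 had −0.67 and Dgat1 −0.33. Among carbonic anhydrases and acid-base transporters 6 of 20 were above 0 and 14 below, with a median of −0.12 and 0 called. Bsg, the chaperone of lactate transporters, had 0.31 and Slc4a7, a sodium bicarbonate transporter, had −0.51, against 0.10 and −0.07 when cKO library A was left out.

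The bases before the annotated starts of Slc1a3, Glul and Rlbp1 are shown because these glutamate and retinoid genes were all higher in cKO than in wild type within both tags. Each is the 250 bases before the RefSeq start, on GRCm38.p6, and 6 of the 10 genes had such an entry. Capitals mark the N-box CACNAG, bound by Hes repressors of the Notch pathway, on either strand:
Slc1a3 (chr15:8710808-8711057, minus strand): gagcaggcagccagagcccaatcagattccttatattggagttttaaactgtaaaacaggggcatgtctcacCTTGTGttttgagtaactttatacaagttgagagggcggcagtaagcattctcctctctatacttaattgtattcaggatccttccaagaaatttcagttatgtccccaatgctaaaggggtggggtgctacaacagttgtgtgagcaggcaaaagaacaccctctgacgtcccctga
Glul (chr1:153899679-153899928, plus strand): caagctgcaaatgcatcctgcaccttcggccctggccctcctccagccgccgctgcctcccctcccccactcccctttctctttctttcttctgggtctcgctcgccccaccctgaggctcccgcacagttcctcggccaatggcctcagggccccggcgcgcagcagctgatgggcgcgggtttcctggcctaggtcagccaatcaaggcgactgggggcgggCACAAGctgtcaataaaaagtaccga
Rlbp1 (chr7:79387028-79387277, minus strand): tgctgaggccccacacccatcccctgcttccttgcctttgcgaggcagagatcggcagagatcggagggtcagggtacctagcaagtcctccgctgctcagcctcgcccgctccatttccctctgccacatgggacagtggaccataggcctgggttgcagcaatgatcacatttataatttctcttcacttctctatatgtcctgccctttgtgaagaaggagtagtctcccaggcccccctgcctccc
The N-box letters stood once before Slc1a3 and once before Glul and were not in the Rlbp1 window, while 36.7% of the 32851 RefSeq windows of that length held them. Other motifs, searched on both strands, had no match in these sequences: TTGGCA (NFI half-site), ACAATG (SOX), TGGGAA (RBPJ) and TAATCC (OTX and CRX). Over all windows 12.3%, 10.7%, 21.6% and 6.25% held these letters, in that order. The GC content was 44.8% for Slc1a3, 64.8% for Glul and 57.2% for Rlbp1, beside a median of 52.4%. A match describes the letters and is not a binding site.

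The secreted factor Dkk3 and the receptor Gpr37 had the same order of libraries as Slc1a3 and Rlbp1. Dkk3 (ENSMUSG00000030772, chr7:112116017-112159057, minus strand) encodes a member of the Dickkopf family of secreted glycoproteins. It had 140616 and 89828 normalized read counts in cKO libraries A and B, against 95220 and 81962 in wild-type libraries A and B. The groups overlapped, since cKO library B lay between the wild-type libraries. The log2 fold change was 0.35 (SE 0.28; limma, adjusted p = 0.771). Gpr37 (ENSMUSG00000039904, chr6:25665878-25690729, minus strand) encodes a receptor for which prosaposin has been proposed as a ligand. It had 14311 and 6306 in cKO libraries A and B, against 8906 and 5451 in wild-type libraries A and B. Gpr37 was the gene that varied most between wild-type libraries, by 1.63 times, and its log2 fold change was 0.45 (SE 0.44; limma, adjusted p = 0.771). The 95% interval ran from −0.66 to 1.55. Oligodendrocytes also express Gpr37 and Car2. The summed oligodendrocyte markers had 15085 and 11900 in cKO libraries A and B, against 11722 and 12668 in wild-type libraries A and B. Mag, Mog, Mobp and Sox10 were at 0 in cKO library A, where Gpr37 and Car2 were highest. Mog and Mobp were also at 0 in cKO library B and wild-type library A, and had at most 2.76 in wild-type library B. Olig2, on the same list, had 2428 to 3014 over the libraries. Which cells the reads of this list came from was not tested, nor was their part in the Gpr37 and Car2 values. The most abundant of the list were Cnp, a myelin enzyme, at a log2 fold change of 0.20 and Mbp, myelin basic protein, at 0.07; Cnp had −0.25 when cKO library A was left out.

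The lists around them lay close to 0 or slightly above. Of 20 tested Wnt receptors and modulators 12 were above 0 and 8 below (median log2 fold change 0.08; 0 called). Fzd5, a Wnt receptor of retinal progenitors, had 0.06 and Lgr4, an R-spondin receptor, had 0.15. Notum, a secreted Wnt deacylase, had the smallest p of the list, at −1.64 (limma, adjusted p = 0.771), and 25.1 and 194 normalized read counts in cKO libraries A and B, against 183 and 267 in wild-type libraries A and B. Notum had −0.18 and Lgr4 0.05 when cKO library A was left out. In the small list around Gpr37 all 3 tested genes were above 0 and 0 passed. They were Psap, the prosaposin gene, at 0.14, Sort1, a sorting receptor, at 0.29 and Ednrb, an endothelin receptor, at 0.53. When cKO library A was left out, Psap had −0.13, Sort1 −0.15 and Ednrb 0.08, and the median of the 3 was −0.13.

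The potassium channel and the lipid carrier Apoe differed in their order of libraries from the genes above. Kcnj10 (ENSMUSG00000044708, chr1:172341210-172374085, plus strand) encodes Kir4.1, the inward rectifier through which Mueller glia move potassium. It had 2808 and 1869 normalized read counts in cKO libraries A and B, against 2256 and 2399 in wild-type libraries A and B. The cKO libraries thus enclosed the wild-type pair, as the highest and the lowest of the 4 values. The log2 fold change was −0.02 (SE 0.25, 95% interval −0.65 to 0.60; limma, adjusted p = 0.978), and it was 0.07 when libraries were rescaled to a common median and 0.01 in edgeR. Apoe (ENSMUSG00000002985, chr7:19696109-19699188, minus strand) encodes apolipoprotein E, which carries lipids out of glia. It had 12981 and 8267 in cKO libraries A and B, against 13168 and 10086 in wild-type libraries A and B. Within each tag Apoe was lower in cKO, by a log2 ratio of −0.02 at tag A and −0.29 at tag B. The log2 fold change was −0.15 (SE 0.28; limma, adjusted p = 0.846). Without cKO library A it was −0.48, the one member with an unadjusted p under 0.05 in that fit, where 4.98% of genes had one. In the authors' deposited table Apoe had a p-value of 0.0475 and an adjusted p-value of 1.00.

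Microglial genes, which mark another source of Apoe, were lower in the same libraries. The summed level of 16 microglial markers was 2417 and 12124 in cKO libraries A and B, against 26701 and 25817 in wild-type libraries A and B. All 16 were lower in both tags, and Aif1 and Ptprc were at 0 in cKO library A. Csf1r, the receptor that microglia need to survive, had a log2 fold change of −2.59. With all libraries 0 of the 16 passed after adjustment (limma), and 13 had an unadjusted p under 0.05, against 1.89% of all tested genes. Without cKO library A, where the cKO arm is 1 library, their median log2 fold change was −1.20, beside −0.01 over all tested genes. Apoe in cKO library A, the library with the lowest microglial sum, stood next to wild-type library A. The part of microglial RNA in the Apoe values was not tested. Among other lipid genes the median was −0.06 on the log2 scale, 11 of 22 lay above 0 and 0 were called. Srebf2, a regulator of cholesterol synthesis, had 0.33, and Abca1, a lipid exporter that loads apolipoproteins, had −0.996 with 536 and 720 in cKO libraries A and B, against 1509 and 1020 in wild-type libraries A and B (limma, adjusted p = 0.771). When cKO library A was left out, Srebf2 had −0.04 and Abca1 −0.78.

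Clu and Aqp4 were the scarce members, and both were lowest in cKO library A. Clu (ENSMUSG00000022037, chr14:65968483-65981547, plus strand) encodes clusterin, a secreted chaperone that also carries lipids. It had 72.6 and 224 normalized read counts in cKO libraries A and B, against 255 and 260 in wild-type libraries A and B. These stood for 26 and 339 reads, against 336 and 377. The exact Poisson 95% interval in cKO library A was 47.5 to 106, below the 228.5 to 284 of wild-type library A, while the 201 to 249 of cKO library B overlapped it; such intervals cover counting error only. The log2 fold change was −1.01 (SE 0.60; limma, adjusted p = 0.771); its value without cKO library A was −0.20. Aqp4 (ENSMUSG00000024411, chr18:15389496-15410982, minus strand) had 14.0 and 22.5 in cKO libraries A and B, against 30.4 and 29.7 in wild-type libraries A and B. Its 5 reads in cKO library A give an interval of 4.54 to 32.6, which includes both wild-type values. Counting error alone could thus cover the gap between that library and those values. The 34 reads of cKO library B, with an interval of 15.6 to 31.4, include them as well. Both genes had the groups apart with cKO lower, as 22.3% of all tested genes did.

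Of 9 tested astrocyte genes, which mark the other retinal source of Aqp4 and Clu, 8 lay below 0 and 1 above (median log2 fold change −0.51), and 0 passed in limma. The summed level of 12 astrocyte markers was 5239 and 5906 in cKO libraries A and B, against 9960 and 7650 in wild-type libraries A and B. Without Slc1a2, the most abundant, it was 1316 and 1241 in cKO libraries A and B, against 2332 and 1656 in wild-type libraries A and B. Slc1a2, a glutamate transporter, and Pdgfra, a growth factor receptor of immature astrocytes, were the most abundant, at log2 fold changes of −0.66 and −0.68. Aqp9, Gjb6, S100b and Sox10 were at 0 in cKO library A, and Gjb6 in the other 3 libraries as well. The part of astrocyte RNA in Clu and Aqp4 was not tested. Partners of Kcnj10 and Aqp4 in ion transport and the dystrophin complex centred on 0.02 (median, log2 scale), 9 of 18 lying above 0 and 0 called. Atp1b2, a sodium pump subunit of glia and photoreceptors, had 27809 and 25324 in cKO libraries A and B, against 41316 and 34220 in wild-type libraries A and B, a log2 fold change of −0.50 (limma, adjusted p = 0.771). Agrn, a matrix ligand of dystroglycan, had −0.36, and −0.0032 when cKO library A was left out.

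Set side by side within tags, the genes were separated mostly at tag A. At tag A 7 of the 10 genes were higher in cKO, with a median log2 ratio of 0.44, against −0.05 over all tested genes. At tag B 6 of 10 were higher, with a median of 0.03, against −0.00 over all tested genes. Slc1a3 had the largest ratio at tag A, 0.70, and 0.04 at tag B. Higher in cKO within both tags were 6 genes, Slc1a3, Glul, Rlbp1, Car2, Dkk3 and Gpr37, where the share over all tested genes was 32.7%. Lower within both were Apoe, Aqp4 and Clu, where the share was 36.6%, and Kcnj10 had 0.32 at tag A and −0.36 at tag B. The cKO libraries differed from each other by a median absolute log2 ratio of 0.65 over the 10 genes, against 0.13 for the wild-type pair. Over all tested genes these medians were 0.42 and 0.20.

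**Figure D2:**
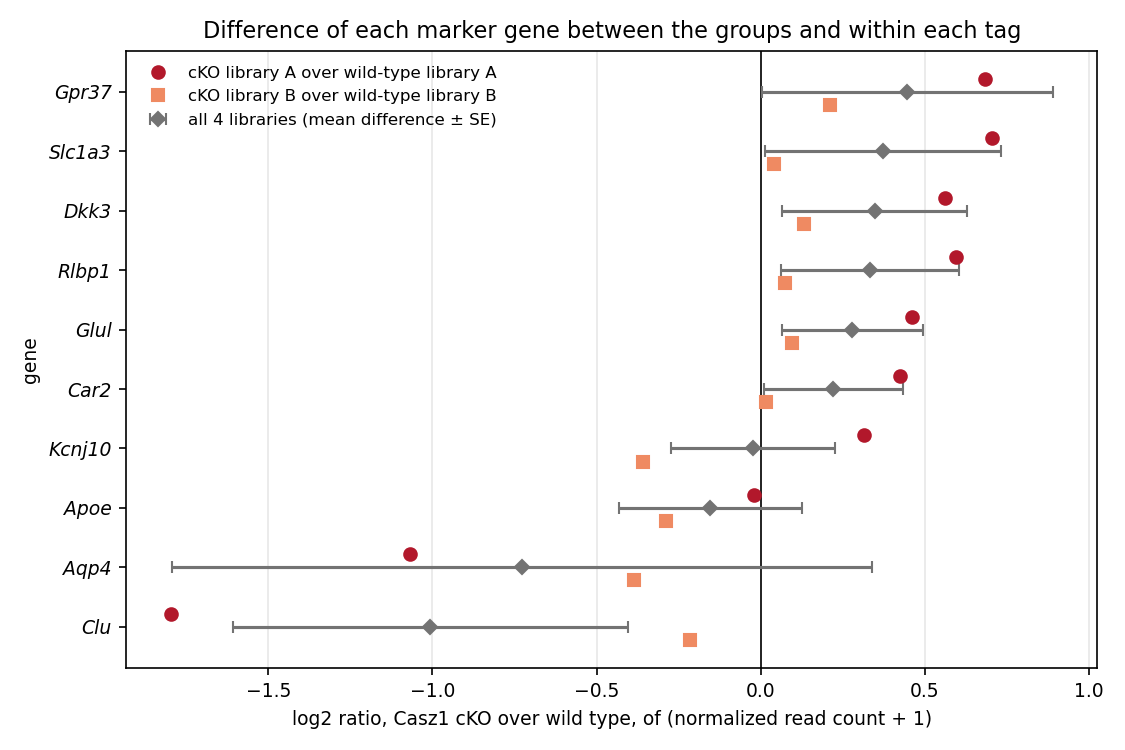
Log2 ratio of Casz1 cKO over wild type for each gene within tag A (red circles) and tag B (orange squares), with the difference of the group means on the log2 scale and its limma standard error (grey diamonds and bars). Ratios at tag A run from −1.80 for Clu to 0.70 for Slc1a3, and those at tag B from −0.39 for Aqp4 to 0.21 for Gpr37.

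Abundant genes as a whole were shifted in cKO library A. Of 3279 genes with a mean of at least 5000 normalized read counts, a bound set after the values were seen, 53.2% were highest in cKO library A and 63.1% had a log2 fold change above 0. Their median log2 fold change was 0.10, with 0.16 at tag A and 0.03 at tag B. Of the 10 marker genes 7 passed that bound, Apoe and the 6 genes that were higher within both tags. The part of this level trend in the values of those genes was not tested.

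Several genes turned direction when a library was left out. Without cKO library A the log2 fold changes were −0.14 for Gpr37, −0.13 for Slc1a3, −0.02 for Rlbp1 and −0.0005 for Car2, and 0.02 for Dkk3 and 0.07 for Glul. In that fit 0 of 10 genes passed, where limma called 0.0206% of genes higher and 0.502% lower. Without cKO library B the spread came from the wild-type libraries alone, with cKO library A taken to vary as they do, and 4 of 10 genes passed in limma. Gpr37 (1.04, adjusted p = 0.000374), Slc1a3 (0.87, adjusted p = 0.00162) and Rlbp1 (0.68, adjusted p = 0.00445) were higher, and Clu (−1.81, adjusted p = 0.000123) was lower. The same fit called 12.8% of all genes higher and 26.4% lower. At an unadjusted p under 0.05 it had 7 of the 10, against 47.9% of all genes. Leaving out either wild-type library, 0 of 10 passed (background 0%). At an unadjusted p under 0.05 there were 0 of 10 without wild-type library A, against 1.16% of genes, and 0 of 10 without wild-type library B, against 1.12%. Gpr37 had 0.80 when wild-type library A was left out, and 0.09 when it was B.

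**Figure D3:**
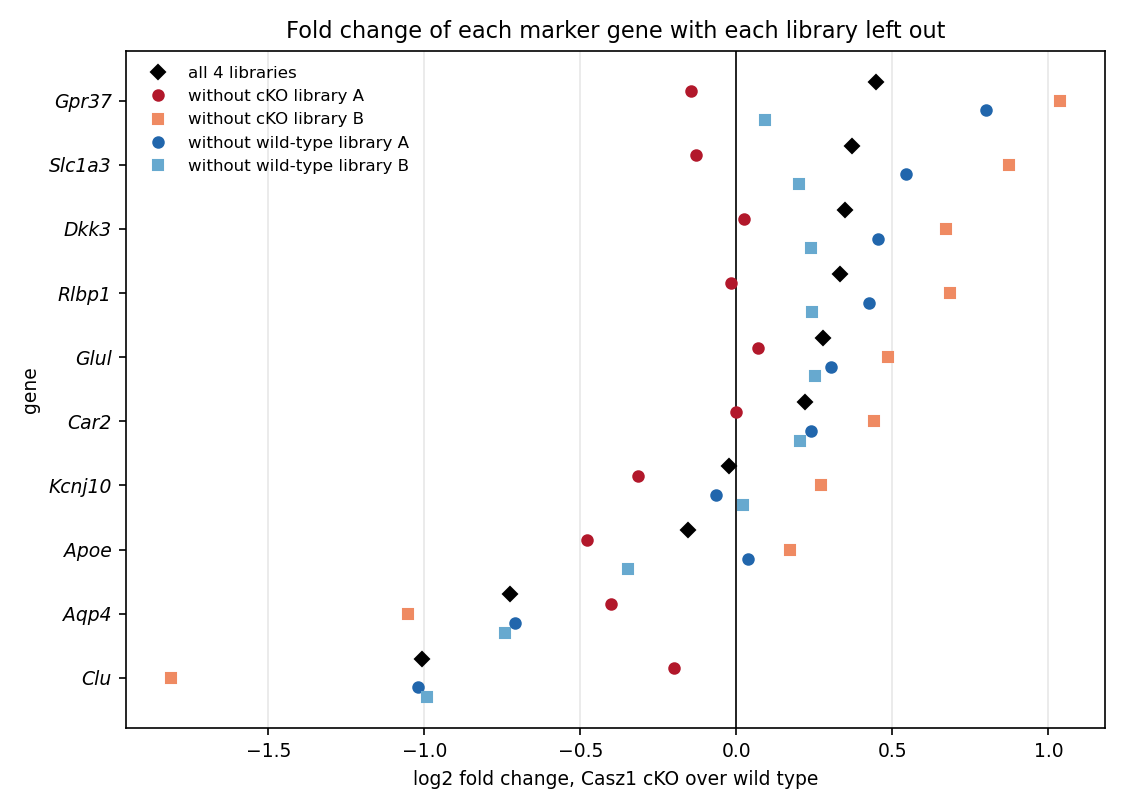
Log2 fold change of each gene, Casz1 cKO over wild type, with all 4 libraries (black diamonds) and with each library left out in turn (colours by the library left out). Without cKO library A (red circles) the values lie between −0.48 for Apoe and 0.07 for Glul; without cKO library B (orange squares) they spread from −1.81 for Clu to 1.04 for Gpr37.

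A wider list of 42 further genes of Mueller glia, many shared with progenitors, also lay mostly above 0. Of 41 tested, 30 were above 0 and 11 below (median log2 fold change 0.15), and 0 passed in limma. Within tags the medians were 0.31 (A) and 0.06 (B), and without cKO library A it was 0.04. Notch1, the receptor that keeps progenitors and glia from becoming neurons, and Acsl3, an acyl-CoA synthetase, were the most abundant, at −0.01 and 0.14. Cyr61, a secreted matricellular protein, had the smallest p. It had 38329 and 39111 normalized read counts in cKO libraries A and B, against 21604 and 30550 in wild-type libraries A and B. Both cKO libraries lay above both wild-type ones, as for 17.2% of all tested genes and 13 of the 41 of this list. The log2 fold change of Cyr61 was 0.59 (SE 0.23, limma, adjusted p = 0.771). Left without cKO library A, the fold change was 0.61 on that scale. Progenitor markers had a median of 0.19, with 14 of 16 above 0 and 0 called, and medians of 0.32 at tag A and 0.13 at tag B. Ccnd1, a cyclin of dividing progenitors, had 0.45, and Pax6, a homeodomain factor of progenitors and amacrine cells, −0.15. When cKO library A was left out, Ccnd1 had 0.14, Pax6 0.35 and Acsl3 −0.01.

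Lists of neurons and of vessel cells were also measured. Of 20 photoreceptor markers 19 lay below 0, at a median log2 fold change of −0.94. After adjustment 0 were called, and 14 had an unadjusted p under 0.05 (limma), against 1.89% of all tested genes. Without cKO library A the median of the photoreceptor markers was −0.62. With cKO library B left out the median of the photoreceptor markers was −0.89, beside −0.04 over all tested genes. Each of these fits had a cKO arm of 1 library. Crx, a homeodomain factor of photoreceptors, had −0.60 and Otx2, another, had −0.40, against −0.23 for Otx2 when cKO library A was left out. Amacrine and horizontal cell markers had a median of −0.13, which was 0.01 with cKO library A left out and −0.40 with B left out. Tfap2b, a transcription factor of both cell types, had 0.03, and −0.12 when cKO library A was left out. Ganglion cell markers had a median of 0.02, which was 0.42 with cKO library A left out and −0.35 with B left out. Elavl3, a neuronal RNA-binding protein, had −0.14 and Stmn2, a microtubule regulator, 0.30, against 0.02 and 0.50 when cKO library A was left out. Of 10 tested endothelial and mural cell markers 4 lay above 0 and 6 below, with a median of −0.20. The growth factor receptors Kdr (0.11) and Pdgfrb (0.15), the most abundant, lay above 0, and Kdr had −0.05 when cKO library A was left out. Kdr had 37658.6 to 48370.5 normalized read counts, while Pecam1 had 0 to 84.3 and Cdh5 0 to 23.5. Which cells the Kdr reads came from was not tested. In cKO library A 8 of the 15 listed endothelial and mural markers were at 0, Pecam1 and Cdh5 among them. Of all 22690 genes, 9179 were at 0 there. Emcn and Kcnj8 were at 0 in cKO library B as well. With all 4 libraries 0 genes of these lists passed in limma.

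**Figure D4:**
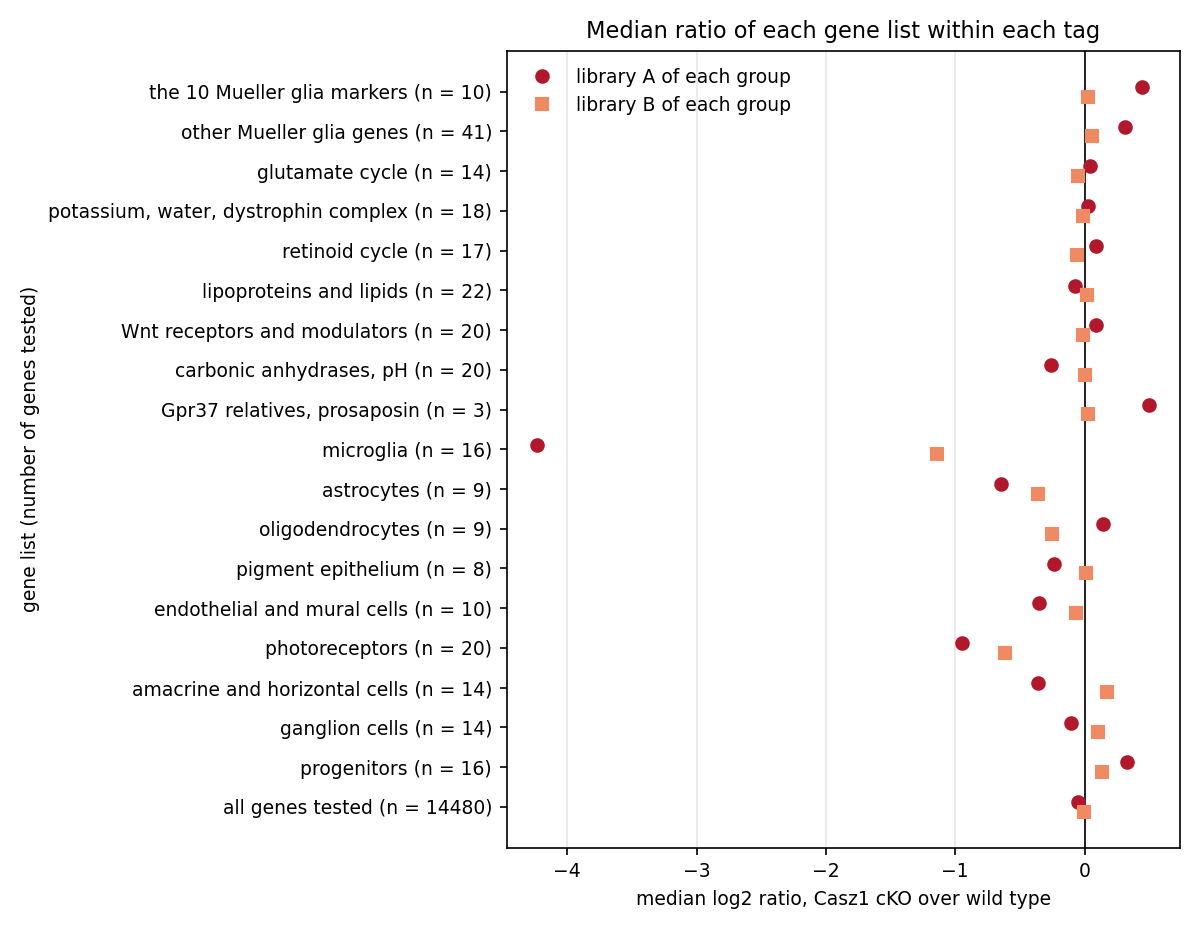
Median log2 ratio of Casz1 cKO over wild type within tag A (red circles) and tag B (orange squares) for the 10 marker genes, for lists of related genes and of other cell types, and for all tested genes. The 10 genes lie at 0.44 and 0.03, the further Mueller genes at 0.31 and 0.06, and microglial markers lowest, at −4.23 and −1.14.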

How the data were processed

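Per the submitters' processing notes, the authors' tools were TopHat, HTSeq, DESeq and FastQC, and the genome build was mm10 of the mouse. The library kit was stranded, per the labels. Tool versions, annotation and the strand setting of the counting were not given in the sources used here, so overlapping antisense genes are uncertain. The deposited table gives a signal per gene and library, a normalized count in which each library has its own divisor, since 100% of values were whole multiples of the value of 1 read within 0.01 reads. It also gives the authors' p-values and adjusted p-values, per the file headers. One read was worth 2.79 in cKO library A and 0.661 to 0.759 in the others. Both cKO columns carry the same replicate number in the header, 2, and were assigned to the group without a number. With all 4 libraries, the limma p-values rest on the spread within the groups, drawn toward a prior from all tested genes.

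After a minimum mean of 10, log2(normalized count + 1) was compared between groups with limma 3.58.1 (R 4.3.3), using a mean-dependent prior, two-sided, with Benjamini-Hochberg adjustment over all tested genes at 0.05. Fold changes are on that scale, which understates low genes. On recovered reads edgeR 4.0.16 (quasi-likelihood) and DESeq2 1.42.0 were alternatives. Named list genes were the 2 with the highest mean and, for lists of related genes, the one with the smallest p at a mean of at least 50; some list genes are not reported here. The members and lists were chosen with earlier results of these data known. Gene positions and lengths come from GENCODE M21 (GRCm38), where 21798 of 22690 identifiers matched.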

Additional observations from a re-analysis of the deposited data

How the results depend on the processing

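Over 11 alternatives (pseudocounts, filters, rescaling, prior, array weights, edgeR, DESeq2 and a block) 0 of the 10 genes passed and the median of the 10 log2 fold changes lay between 0.25 and 0.34. Kcnj10, near 0, turned positive with rescaling (0.0709), edgeR with (0.0103) and without (0.0113) a low-count filter and DESeq2 (0.0071). DESeq2 called 2 genes over the table and 1 in the related and cell type lists, against 0 in limma. Leaving out each library in turn, calls ranged from 0 to 5662 over all genes, from 0 to 4 among the 10 genes and from 0 to 126 in the lists, with 4 among the 10 genes and 5662 over all genes without cKO library B, and 76 over all genes and 18 in the lists without cKO library A; the cause was not tested. Each of these fits leaves 1 library in a group, so the calls cannot be weighed by themselves. Without cKO library A the list medians furthest from 0 were those of microglial (−1.20) and photoreceptor markers (−0.62), beside −0.01 over all tested genes. Without cKO library B these 2 lists had −4.07 and −0.89, beside −0.04. Over the fits with a library left out, the median of the 10 marker genes ranged from −0.14 to 0.46. Single genes turned sign there, with ranges of −0.0168 to 0.68 for Rlbp1, −0.13 to 0.87 for Slc1a3, −0.48 to 0.17 for Apoe, −0.32 to 0.27 for Kcnj10, −0.0005 to 0.44 for Car2 and −0.14 to 1.04 for Gpr37.

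Whether a tag marks a shared experiment is not stated. The 2 libraries of tag A deviated from their group means with r = 0.258 over genes. With 2 libraries per group, tag B gives the same r by construction. With the replicate block 0 of the 10 genes passed in limma (0 over all genes, 9.5% at an unadjusted p under 0.05), at a median log2 fold change of 0.25. Depth limits Aqp4, with 5 reads in cKO library A, and Aqp4 had no value at a mean of at least 50. Clu had 26 reads there, and its counting interval lay below those of both wild-type libraries. The 2 cKO libraries differed for Clu, at 72.6 and 224 normalized read counts.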
